A study of Rattus norvegicus with 10 samples.

Results

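Liver cells build triglyceride from glycerol-3-phosphate and fatty acids, store it in lipid droplets, and either break it down again or load it onto very low density lipoprotein (VLDL) for export. The 10 genes described here encode steps along that route: Gpam, Agpat2, Lpin1, Lpin2, Dgat1 and Dgat2 on the synthetic side, Pnpla2 and Plin5 at the lipid droplet, and Mttp and Lipc in VLDL assembly and in lipoprotein breakdown. They were chosen by symbol, taking every probe set of the array whose annotation gave 1 gene symbol and gave one of these names. That rule found 14 of 31099 probe sets, and 10 of 14217 genes that had a probe set with 1 symbol. Gpam, Lpin1, Lpin2 and Dgat2 had 2 probe sets each and the other 6 genes had 1. All 14 probe sets passed the filter on dim values given below, and the lowest of their mean intensities was 132.

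The samples were livers of Wistar/ST rats, all of them on a high-fat diet, with 1 Affymetrix array for each of 10 rats. In the mulberry group 5 rats received dried leaf powder of mulberry at 500 mg per kg body weight each day, given through a gastric probe in 0.5% carboxymethylcellulose after an overnight fast. The 5 control rats had the same diet and a dose of 0 mg per kg, given by the same protocol and vehicle. The labels state the dose per day but word the schedule as 6 weekly, so the number of days on which it was given is not settled. Livers were taken after 7 weeks, and the labels used here give neither the sex nor the age of the animals. The design asks how the leaf alters hepatic gene expression during fat feeding, and both groups carry the effect of that diet, since no group on another diet was analysed here.

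Synthesis starts at the outer mitochondrial membrane, where GPAM, a glycerol-3-phosphate acyltransferase, adds the first fatty acid. AGPAT2 adds the second at the endoplasmic reticulum and so makes phosphatidic acid. Lipins remove its phosphate to give diacylglycerol, and lipin 1 also acts in the nucleus as a coactivator of PPAR-alpha together with PGC-1-alpha, with expression that rises on fasting. DGAT1 and DGAT2 attach the last fatty acid. In fatty liver the balance between this synthesis, droplet lipolysis and VLDL export sets how much triglyceride the tissue holds.

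RefSeq promoter sequence of the rat assembly GRCr8 was matched for 7 of the 10 genes by Entrez identifier. The 250 bases before the annotated start are shown for Gpam, Agpat2 and Lpin2, the synthetic enzymes with the strongest relations to each other over the 10 rats, and for Lpin1, the gene with the lowest mulberry to control ratio. Capitals mark matches, on either strand, to the E-box (CACGTG), the CCAAT box (letters CCAAT), the GC box (letters GGGCGG), the TATA box (letters TATAAA) or a cAMP response half-site (letters TGACG).
Gpam, chr1:264175912-264176161, minus strand: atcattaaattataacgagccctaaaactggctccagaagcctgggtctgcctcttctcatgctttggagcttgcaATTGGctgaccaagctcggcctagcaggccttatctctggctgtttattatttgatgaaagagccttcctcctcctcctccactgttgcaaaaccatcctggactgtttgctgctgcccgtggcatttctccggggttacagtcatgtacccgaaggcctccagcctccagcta
Agpat2, chr3:29826158-29826407, minus strand: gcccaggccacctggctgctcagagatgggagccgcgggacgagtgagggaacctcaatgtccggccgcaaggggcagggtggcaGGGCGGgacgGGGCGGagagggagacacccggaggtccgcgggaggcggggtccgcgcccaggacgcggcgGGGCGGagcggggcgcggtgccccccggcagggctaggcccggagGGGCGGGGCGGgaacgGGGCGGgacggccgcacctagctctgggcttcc
Lpin1, chr6:45108943-45109192, minus strand: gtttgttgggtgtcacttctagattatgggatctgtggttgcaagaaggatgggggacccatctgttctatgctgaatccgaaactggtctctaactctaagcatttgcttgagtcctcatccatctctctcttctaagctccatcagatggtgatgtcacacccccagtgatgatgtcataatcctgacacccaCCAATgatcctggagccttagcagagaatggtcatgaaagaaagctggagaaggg
Lpin2, chr9:118530105-118530354, plus strand: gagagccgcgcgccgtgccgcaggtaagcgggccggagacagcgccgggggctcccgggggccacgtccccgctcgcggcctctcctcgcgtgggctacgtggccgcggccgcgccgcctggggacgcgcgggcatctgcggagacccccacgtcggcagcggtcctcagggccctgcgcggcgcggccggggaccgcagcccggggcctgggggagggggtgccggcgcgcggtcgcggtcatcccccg
The Gpam stretch held 1 CCAAT box that began 174 bases before the start, on the opposite strand, and 51.2% of its bases were G or C, equal to the median of all promoters. Lpin1 also had 1 CCAAT box, 55 bases before the start, and a G and C share of 47.2%. The Agpat2 stretch was richer in G and C, at 78.4%, and held 6 GC boxes, a pair of which overlapped by 1 base. Lpin2 had the highest share, at 82.4%, and none of the 5 motifs. Among 33469 rat promoters of the same length the CCAAT box occurred in 34.0%, the GC box in 30.5%, the half-site in 18.2%, the TATA box in 12.9% and the E-box in 5.59%. These matches describe letters and show no binding.

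Levels are signal intensities on the linear scale, which in the authors' table have the same trimmed mean on every array, and group levels are given as mean ± SD over 5 rats. Differences are mulberry minus control in log2(intensity + 16) with the standard error (SE) of a linear model fitted with limma to 18625 probe sets, those above the 40th percentile of mean level (an intensity of 61.1). For single probe sets an exact permutation test, two-sided, went through the 252 ways of splitting the rats and cannot give a p below 0.00794. A brightness cannot be compared between probe sets, so each gene is compared only with itself. In a whole piece of liver, fewer cells of a type and less RNA per cell cannot be told apart.

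None of the 14 probe sets differed between the groups beyond the spread between rats. The limma adjusted p was 0.9999 for each of them, and 0 of 14 had an unadjusted p under 0.05. Over all probe sets tested, 0% passed the adjusted threshold of 0.05 and 1.74% (325, of which 200 were higher and 125 lower in mulberry rats) had an unadjusted p under 0.05. Mulberry and control rats overlapped for all 14 probe sets, against 0.344% of all tested probe sets (64) in which the groups did not overlap. Mean levels were lower in mulberry rats for 13 of the 14 probe sets as deposited and for 12 after quantile normalization, in which Lipc turned to a difference of 0.0086. For comparison, 47.5% of all tested probe sets had a lower mean in mulberry rats. By gene, with the probe set of highest mean for each, 9 of the 10 were lower as deposited. The 14 probe sets include pairs from 1 gene and all come from the same 10 rats. They are therefore not independent, and these counts were not tested. The median difference was −0.11 over the 14 probe sets and 0.0075 over all tested. The 95% intervals, not adjusted for the number of probe sets, reached a median of 0.39 to either side. That width gives the precision for a typical probe set of these genes with 5 rats a group. It is not the smallest difference that could pass the adjusted threshold, which was not computed.

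**Figure D1:**
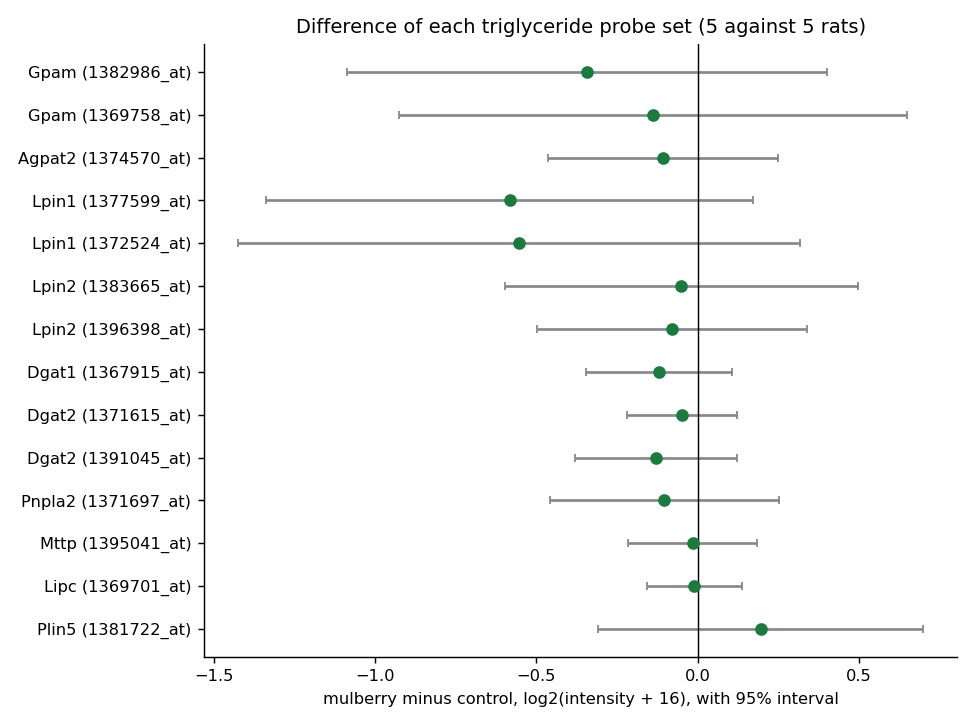
Difference of each probe set, mulberry minus control in log2(intensity + 16) on the horizontal axis, with the 95% interval of the limma fit over 5 and 5 rats as the bar. All 14 intervals span 0, the widest belong to Lpin1 and Gpam and the narrowest to Lipc, whose difference of −0.010 turned to 0.0086 after quantile normalization.

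Gpam, the acyltransferase of the first step, was among the most variable probe sets of the array, with a wide spread inside both groups. Its intensity in control rats 1 to 5 was 472, 383, 371, 260 and 190. In mulberry rats 1 to 5 it was 557, 334, 243, 153 and 133. Mulberry rat 1 was the highest and mulberry rat 5 the lowest of all 10, a 4.196-fold range, and 4 of the 5 mulberry rats lay under the control mean. The means were 335 ± 111 in control and 284 ± 172 in mulberry animals (SD over 5 rats each), a difference of −0.34 ± 0.34 (SE) with a 95% interval from −1.09 to 0.40 (exact permutation p = 0.421). It was −0.62 without mulberry rat 1 and −0.14 without mulberry rat 5. The SD of Gpam over the 10 rats was above that of 95.7% of the tested probe sets. Its second probe set ranged from 66.7 to 242 in control and from 75.7 to 334 in mulberry rats, with a difference of −0.14 ± 0.36, and without mulberry rat 5 that difference was 0.063. Both probe sets put mulberry rat 1 on top, and they correlated over the 10 rats with a Pearson r of 0.80 and a Spearman rho of 0.81.

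Agpat2, the acyltransferase of the second step, was steadier. Control rats 1 to 5 had intensities of 1952, 1967, 1539, 1581 and 1402. Mulberry rats 1 to 5 had 2068, 1681, 1447, 1066 and 1676. As for Gpam, mulberry rat 1 was the highest, whereas mulberry rat 4 was the lowest. Group means were 1688 ± 256 in control and 1588 ± 367 in mulberry animals (SD over 5 rats each), which differed by −0.11 ± 0.16 (exact permutation p = 0.587). Without mulberry rat 4 the difference was 0.026, so its direction rested on that animal, and without mulberry rat 1 it was −0.21.

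Lpin1, the phosphatidate phosphatase that is also a nuclear coactivator, had the lowest mulberry to control ratio of the 10 genes. Its intensity was 4029, 1437, 1521, 1999.97 and 3523 in control rats 1 to 5. In mulberry rats 1 to 5 it was 1422, 1384, 816, 3109 and 1616. Control rats 1 and 5 and mulberry rat 4 stood well above the other 7 rats, so high and low livers occurred in both groups. The mean was 2502 ± 1196 in control and 1669 ± 858 in mulberry animals (SD over 5 rats each), a difference of −0.58 ± 0.35 with an interval from −1.34 to 0.17 (exact permutation p = 0.167). On the linear scale of the model this was −33.2%, with an interval from −60.5% to 12.7%. A second Lpin1 probe set gave 2066, 705, 915, 884 and 2744 in control rats and 631, 763, 546, 2021 and 868 in mulberry rats. The same 3 rats were high, the difference was −0.55 ± 0.40 (exact permutation p = 0.238), and the probe sets of Lpin1 followed each other closely (r = 0.95, rho = 0.92 over 10 rats). The first difference was −0.84 without mulberry rat 4 and −0.36 without mulberry rat 3, and the second −0.86 without mulberry rat 4 and −0.28 without control rat 5, so no left-out rat turned their direction.

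Lpin2 encodes a second phosphatidate phosphatase of liver. Its brighter probe set gave 449.7, 581, 1062, 940.05 and 1059 in control rats 1 to 5. The mulberry rats gave 492, 686, 761, 942 and 959.8. In either group rat 1 was the lowest, and the group ranges nearly coincided. Means of 818 ± 285 in control and 768 ± 194 in mulberry animals (SD over 5 rats each) differed by −0.050 ± 0.25 (exact permutation p = 0.865). The dimmer probe set lay between 117 and 174 in control and between 95.4 and 194 in mulberry rats, with a difference of −0.079 ± 0.19. The probe sets of Lpin2 ranked the rats differently (r = 0.32, rho = 0.31). The relations between genes below use the brighter probe set of every gene by a fixed rule, and were not computed with the dimmer one. Leaving out single rats took the difference from −0.24 (without control rat 1) to 0.097 (without mulberry rat 1) for the brighter probe set and from −0.22 (without mulberry rat 4) to 0.0084 (without control rat 4) for the dimmer, so Lpin2 had no settled direction.

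**Figure D2:**
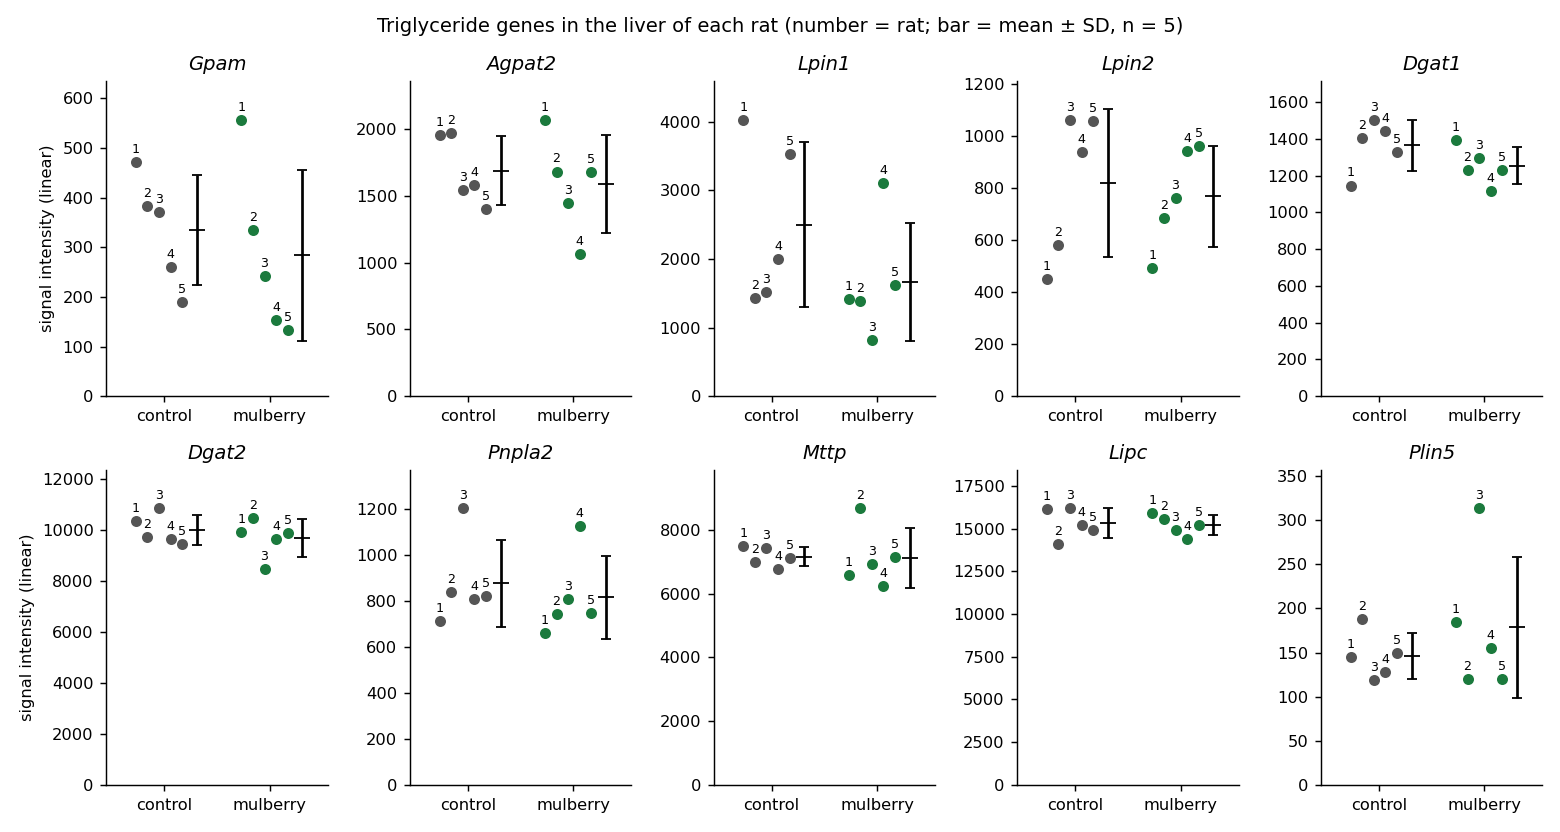
Signal intensity of the 10 genes in each rat, on a linear axis that starts at 0, with the probe set of highest mean for each gene. Points are single rats, numbered 1 to 5 as in the labels, and the bar beside each group is the mean ± SD (n = 5). Gpam, Lpin1 and Plin5 spread widely within the groups, Dgat2, Mttp and Lipc stay in a narrow band, and the groups overlap in every panel.

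Dgat1 and Dgat2 make triglyceride from diacylglycerol by unrelated enzymes, DGAT1 acting largely on fatty acids that re-enter the cycle and DGAT2 on newly made ones. Dgat1 gave 1147, 1405, 1505, 1445 and 1329 in control rats 1 to 5 and 1392, 1231, 1295, 1118 and 1232 in mulberry rats 1 to 5. The 4 mulberry rats other than rat 1 lay under 4 of the 5 control rats, while control rat 1 was low as well. The means of 1366 ± 138 in control and 1254 ± 101 in mulberry animals (SD over 5 rats each) differed by −0.12 ± 0.10, with an interval from −0.34 to 0.11 (exact permutation p = 0.183). As a percentage this was −7.98%, with an interval from −21.3% to 7.55%. The log2 difference was −0.18 without control rat 1 and −0.080 without mulberry rat 4.

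The brighter Dgat2 probe set was among the steadiest of the array, with an SD above that of only 2.28% of those tested. For the second Dgat2 probe set this share was 25.3%. Both shares are over tested probe sets of every brightness. The values of single rats are those of the brighter one. Control rats 1 to 5 read 10331, 9719, 10829, 9625 and 9432. Mulberry rats 1 to 5 read 9919, 10458, 8463, 9616 and 9869. Control rat 3 was the highest and mulberry rat 3 the lowest, and the other 8 rats lay between 9432 and 10458. Dgat2 averaged 9987 ± 578 in control and 9665 ± 739 in mulberry animals (SD over 5 rats each), and differed by −0.049 ± 0.079 (exact permutation p = 0.508), or −3.33% with an interval from −14.1% to 8.80%. Its second probe set differed by −0.13 ± 0.12 and ordered the rats much as the first did (r = 0.73, rho = 0.78). Without mulberry rat 3 the first probe set differed by −0.0019, and without control rat 3 the second by −0.052.

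Pnpla2 encodes adipose triglyceride lipase, which cuts the first fatty acid from stored triglyceride, and Plin5 a droplet coat protein that holds this lipase and its activator at the droplet and tethers droplets to mitochondria. Pnpla2 read 714, 837, 1202, 808 and 823 in control rats 1 to 5 and 659, 742, 807, 1125 and 748 in mulberry rats 1 to 5. One rat in each group, control rat 3 and mulberry rat 4, stood above the rest. The means were 877 ± 188 and 816 ± 180.4 (SD, n = 5 each), a difference of −0.10 ± 0.16 (exact permutation p = 0.516), which was 0.014 without control rat 3 and −0.22 without mulberry rat 4. These same 2 rats had the lowest log2 ratios of the 3′ over the 5′ Gapdh control probe set, −0.011 and 0.024, against 0.090 to 0.34 in the other 8. Over the 10 rats that ratio, a measure of RNA integrity, correlated with Pnpla2 at r = −0.62 (permutation p = 0.0521, adjusted over 30 relations 0.521; rho = −0.39, permutation p = 0.264, adjusted 0.924). Without these 2 rats r was 0.37, so the relation rested on them, and its part in the Pnpla2 values was not tested. By the same ratio for beta-actin the lowest were mulberry rat 4 (1.29) and mulberry rat 1 (1.48), with control rat 3 at 1.51. The beta-actin ratio correlated with Pnpla2 at r = −0.44 (permutation p = 0.210, adjusted 0.764) and rho = −0.079 (permutation p = 0.838, adjusted 0.924).

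Plin5 was the only one of the 10 genes with a higher mean in mulberry rats as deposited (after quantile normalization Lipc was higher too), and 1 rat carried that difference. Control rats 1 to 5 had intensities of 145, 188, 119, 128 and 149.6. Mulberry rats 1 to 5 had 184, 119.6, 313, 156 and 119.9. Mulberry rat 3 lay far above the other 9 rats, which ranged from 119 to 188. Means of 146 ± 26.5 in control and 179 ± 80.1 in mulberry animals (SD over 5 rats each) differed by 0.20 ± 0.23 with an interval from −0.31 to 0.70 (exact permutation p = 0.532). Without mulberry rat 3 the difference was −0.016, and without mulberry rat 2 it was 0.30.

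Mttp encodes the large subunit of the microsomal triglyceride transfer protein, which loads lipid onto apolipoprotein B in the endoplasmic reticulum. It read 7497, 6999.8, 7429, 6781 and 7111 in control rats 1 to 5. In mulberry rats 1 to 5 it read 6601, 8680, 6937, 6252 and 7167. The control rats lay in a band of 4.17% (SD over mean), while mulberry rat 2 lay above and mulberry rats 1 and 4 below all of them, which gave 13.1% in that group. The means of 7164 ± 299 and 7127 ± 934 (SD, n = 5 each) differed by −0.016 ± 0.093 (exact permutation p = 0.873), or −1.08% with an interval from −13.9% to 13.7%. Single left-out rats moved the difference between −0.089 (without mulberry rat 2) and 0.029 (without mulberry rat 4).

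Lipc encodes hepatic lipase, which is secreted by hepatocytes and hydrolyses triglyceride and phospholipid of lipoprotein remnants and HDL at the sinusoidal surface. Control rats 1 to 5 read 16166, 14095, 16175, 15213 and 14922. Mulberry rats 1 to 5 read 15884, 15584, 14915, 14393 and 15202. The highest of the 10 rats was 1.15-fold the lowest, and the SD of Lipc was above that of only 0.317% of the tested probe sets. Lipc averaged 15314 ± 883 in control and 15196 ± 580 in mulberry animals (SD over 5 rats each), a difference of −0.010 ± 0.068 (exact permutation p = 0.865). The interval ran from −10.3% to 9.92%, the narrowest of the 10 genes, and the sign of the difference changed when control rat 1 (0.0099), control rat 3 (0.010) or mulberry rat 4 (0.0092) was left out.

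No array stood apart by its median or its correlations. The log2 ratio of the 3′ over the 5′ beta-actin control probe set ran from 1.29 (mulberry rat 4) to 2.09 (control rat 5). Array medians lay between 97.5 and 118, and correlations between arrays over all probe sets were 0.9568 to 0.9751, on average 0.966 within and 0.967 across groups. The liver label was met by 7 tested hepatocyte markers, with summed intensities of 196778 to 242599 in control and 193777 to 243900 in mulberry rats. Adipocyte RNA was checked because Lpin1, Pnpla2 and Plin5 are also expressed in fat: 4 of 6 matched adipocyte markers, Adipoq, Lep, Plin1 and Fabp4, were under the filter, and the summed level of the 6 was 2565 to 4219 in control and 2834 to 3431 in mulberry rats. The 2 that passed the filter, Cfd and Cidec, differed by 0.24 ± 0.30 and −0.030 ± 0.12 (SE). Adipoq, the adiponectin gene, read 11.9 to 47.7 in control and 5.56 to 36.0 in mulberry rats, and Lep, which encodes leptin, 4.45 to 23.8 over all 10. The same sum over 5 macrophage markers was 4847 to 8605 in control and 4222 to 8269 in mulberry rats, and over 5 lymphocyte markers 504 to 987 and 807 to 1003. Of the 5 tested macrophage markers 4 had a higher mean in mulberry rats, and 1 had an unadjusted limma p under 0.05. Cd68 had the largest difference of these, 0.39 ± 0.18 (SE). Of 4 tested lymphocyte markers 3 were higher, with a median difference of 0.22. None of the tested genes of these lists, or of the lists for pancreatic acini, erythrocytes, bile ducts, endothelium and stellate cells, passed the threshold in limma.

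Across the 10 rats the genes were compared with each other in all 45 pairs, each by Pearson's r and Spearman's rho with permutation p-values adjusted over the pairs. No pair passed the threshold of 0.05 by either measure, with or without the group means removed. At an unadjusted permutation p under 0.05 there were 6 pairs by r and 7 by rho, and r ran from −0.81 to 0.74. The highest rho of the 45 was that of Dgat2 and Lipc, 0.78 (permutation p = 0.0111, adjusted 0.264), with r = 0.59 (permutation p = 0.0664, adjusted 0.427) and r = 0.67 without control rat 3 and mulberry rat 3. It was also the only pair to pass when arrays were centred on their medians (r = 0.87, adjusted permutation p = 0.00765). Centring subtracts the same value from both genes on each array, and the part of that shared value in this r was not tested.

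Among the synthetic enzymes, the strongest relations over the 10 rats joined Gpam, Agpat2 and Lpin2, although none passed the threshold. Lpin2 stands here for its brighter probe set only, with which its dimmer one correlated at r = 0.32. Gpam and Agpat2 had r = 0.74 (permutation p = 0.0127, adjusted 0.161) and rho = 0.76 (permutation p = 0.0149, adjusted 0.264). With mulberry rats 1 and 5 left out, the 2 farthest from the Gpam median, r was 0.91. Leaving out single rats took r from 0.66 (without mulberry rat 1) to 0.93 (without mulberry rat 5, adjusted permutation p = 0.00585). That p was adjusted over the pairs but not over the choice of the rat left out. Gpam and Lpin2 had r = −0.75 (permutation p = 0.0143, adjusted 0.161) and rho = −0.68 (permutation p = 0.0347, adjusted 0.267), and r stayed at −0.68 without mulberry rats 1 and 5. Agpat2 and Lpin2 had r = −0.73 (permutation p = 0.0139, adjusted 0.161) and rho = −0.75 (permutation p = 0.0176, adjusted 0.264), and r was −0.81 without mulberry rats 1 and 4. Removing the group means gave r of 0.73, −0.80 and −0.76 for these pairs, so the relations were also present among rats of one group. Lpin1 and Dgat1 had r = −0.44 (permutation p = 0.207, adjusted 0.768; rho = −0.24, permutation p = 0.514, adjusted 0.899), which was −0.33 without control rats 1 and 5. With the group means removed and all 10 rats kept, r was −0.78 (adjusted permutation p = 0.0868). Lpin2 and Pnpla2 had r = 0.63 (permutation p = 0.050, adjusted 0.375; rho = 0.68, permutation p = 0.0347, adjusted 0.267), which was 0.42 without control rat 1 and mulberry rat 1. Agpat2 and Pnpla2 had r = −0.68 (permutation p = 0.0324, adjusted 0.292; rho = −0.62, permutation p = 0.0616, adjusted 0.277), which was −0.33 without mulberry rats 1 and 4 and so rested on them.

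**Figure D3:**
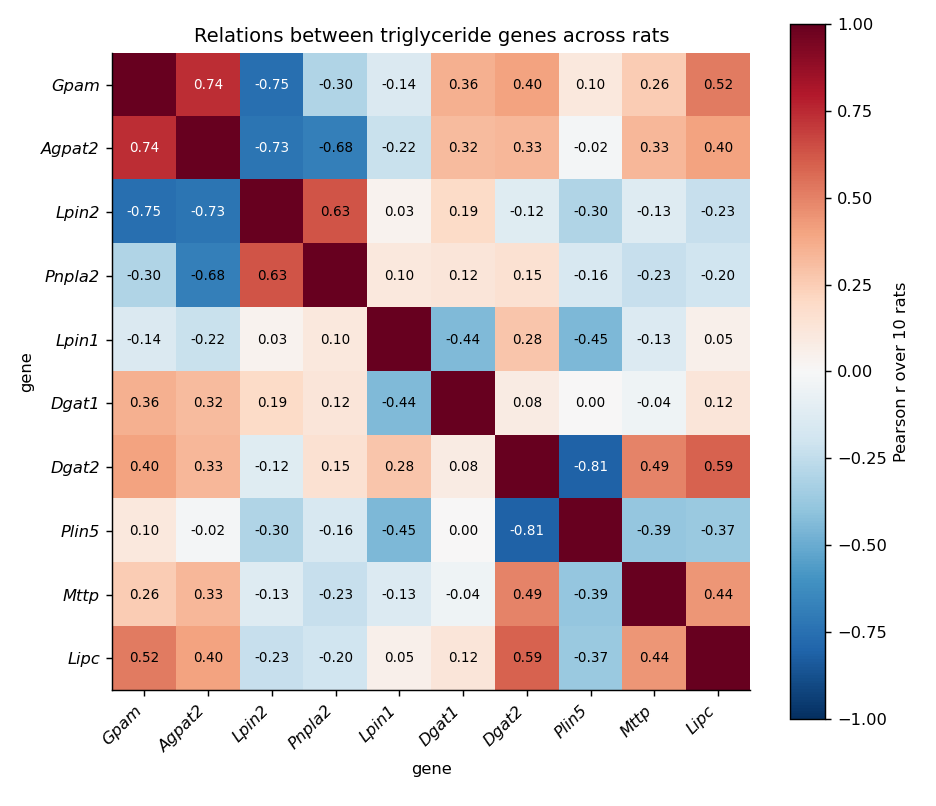
Pearson r over the 10 rats for each pair of the 10 genes, from −1 (blue) to 1 (red), on log2(intensity + 16) with 1 probe set a gene. Gpam and Agpat2 form a positive pair (0.74), both are negative with Lpin2 (−0.75 and −0.73), Dgat2 is negative with Plin5 (−0.81), and none of the 45 pairs passed the adjusted threshold.

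Dgat2 and Plin5 had the most negative Pearson r, −0.81 (permutation p = 0.00928, adjusted 0.161) and rho = −0.68 (permutation p = 0.0356, adjusted 0.267). It rested on 2 animals: without control rat 3, the highest in Dgat2, and mulberry rat 3, the lowest in Dgat2 and highest in Plin5, r was −0.31. The array of mulberry rat 3 also had the highest median intensity, 118. Over the 10 arrays the median intensity correlated with Plin5 at r = 0.73 (permutation p = 0.00955, adjusted over 30 relations 0.286; rho = 0.76, permutation p = 0.0154, adjusted 0.463). With Dgat2 it correlated at r = −0.63 (permutation p = 0.0455, adjusted 0.521; rho = −0.53, permutation p = 0.124, adjusted 0.743). Without mulberry rats 2 and 3, the farthest from the middle of the medians, r was 0.49 with Plin5 and −0.22 with Dgat2, so both were weaker without those arrays. The part of the array median in the Dgat2 and Plin5 relation was not tested.

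**Figure D4:**
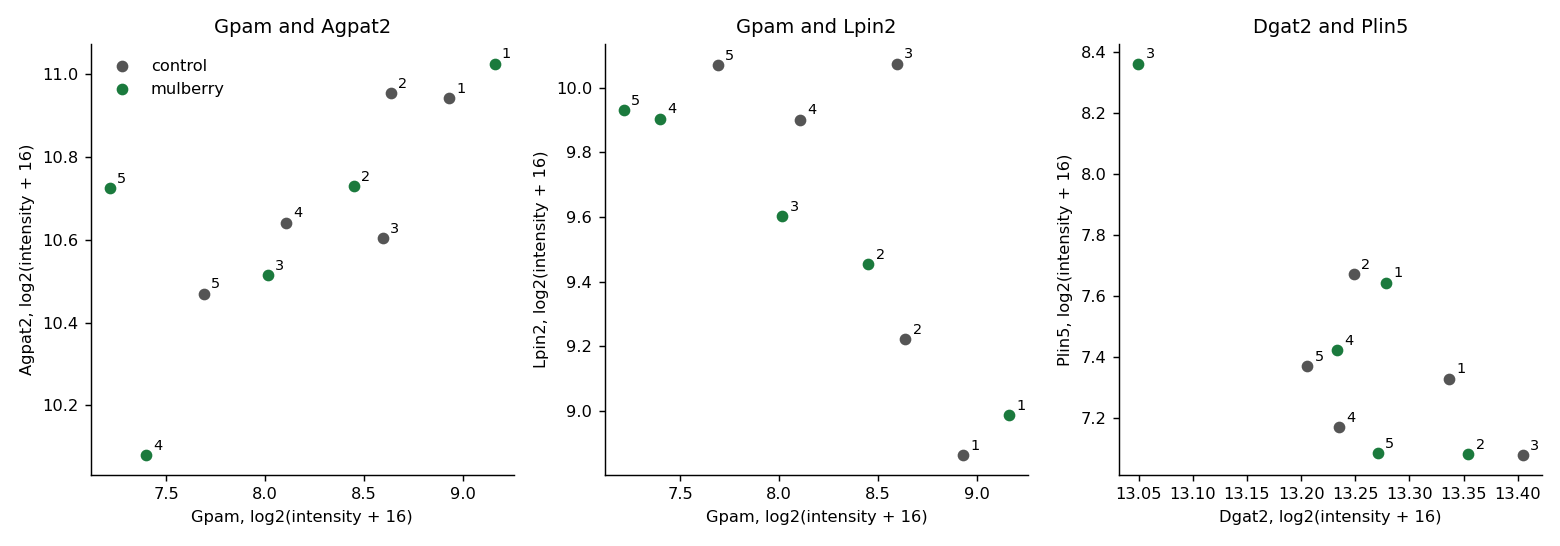
Single rats (gray, control; green, mulberry; numbers as in the labels) for 3 pairs of genes, both axes in log2(intensity + 16). Gpam and Agpat2 tend to be high in the same rats (r = 0.74), Gpam and Lpin2 in different ones (r = −0.75), and the Dgat2 and Plin5 pair hangs on mulberry rat 3 at the upper left.

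Individual rats differed in which of the genes they had at the extremes. Control rat 3 had the highest level of 5 of the 10 genes, Lpin2, Dgat1, Dgat2, Pnpla2 and Lipc, and the lowest of Plin5. Its lead was slight for Lpin2 (1062 against 1059 in control rat 5) and for Lipc (16175 against 16166 in control rat 1). For Plin5 it read 119.2 against 119.6 in mulberry rat 2. On the dimmer Lpin2 probe set mulberry rat 4 was the highest, at 194. How often each rat was highest over all tested probe sets was not counted. Mulberry rat 1 was highest for Gpam and Agpat2, the acyltransferase pair, and lowest for Pnpla2. Mulberry rat 4 was lowest for 3 genes, Agpat2, Dgat1 and Mttp, and mulberry rat 3 for Lpin1 and Dgat2.

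Gpam and Lpin1 had the largest SD over rats, and among 10328 genes with a tested probe set the 3 whose levels followed each most closely over the 10 rats are given as a description, since the closest of so many genes will have a high r in 10 rats. For Lpin1 they were Ell2, a transcription elongation factor gene (r = 0.90), Rpia, which encodes ribose-5-phosphate isomerase (r = 0.89), and Alas1, the rate-limiting enzyme of heme synthesis in liver (r = 0.88). Alas1 ranged from 6604 in mulberry rat 3, which was also the lowest in Lpin1, to 20456 in control rat 1, which was the highest. For Gpam they were Hgd, an enzyme of tyrosine breakdown (r = 0.94), Anxa6, an annexin gene (r = 0.93), and Stard13 (r = 0.93). Hgd was highest in mulberry rat 1, at 9326, and lowest in mulberry rat 4, at 6719.

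Other genes of the same route were taken from 6 lists, and no listed gene passed the threshold in limma. Among genes for glycerol-3-phosphate supply and other acyltransferases, 11 of 15 matched genes were tested, 5 higher and 6 lower, with a median of −0.0055. Gpat4, the endoplasmic reticulum counterpart of Gpam, was 2919 ± 372 in control and 2706 ± 260 in mulberry animals (SD over 5 rats each), a difference of −0.10 ± 0.11 (exact permutation p = 0.349), which was −0.17 without control rat 3 and −0.047 without control rat 5. On its second probe set the difference was −0.07. Agpat3, a relative of Agpat2, was 290.3 ± 31.2 and 319 ± 41.2 (SD, n = 5 each), a difference of 0.12 ± 0.13 (exact permutation p = 0.310) that was 0.21 without mulberry rat 4 and 0.081 without mulberry rat 3, and 1 of its 3 other probe sets had the opposite sign. Neither differed beyond the spread between rats.

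Of 18 tested genes for droplet coat proteins and lipolysis cofactors, 8 had a higher and 10 a lower mean as deposited, against 10 and 8 after quantile normalization. G0s2, which encodes an inhibitor of the lipase that Pnpla2 encodes, read 4135, 5705, 2434, 3635 and 3386 in control and 5956, 5857, 11288, 3260 and 4219 in mulberry rats. Mulberry rat 3 had the highest G0s2 of all, as it had for Plin5. The G0s2 means of 3859 ± 1203 and 6116 ± 3106 (SD, n = 5 each) differed by 0.59 ± 0.29 (exact permutation p = 0.151), and by 0.33 without that rat. Lipe, the gene of hormone-sensitive lipase, was the only gene of the 6 lists with an unadjusted limma p under 0.05, at 0.0410. Its means were 405 ± 98.3 in control and 286 ± 99.5 in mulberry animals (SD over 5 rats each), a difference of −0.51 ± 0.23 (exact permutation p = 0.0873) that did not pass after adjustment. The second Lipe probe set differed by −0.06. Abhd5, whose product activates the lipase, was 1742 ± 146 and 1718 ± 106 (SD, n = 5 each), a difference of −0.019 ± 0.093, and −0.14 on its second probe set. Plin2, the main droplet coat protein of fat-laden hepatocytes, was 7374 ± 1736 in control and 7517 ± 2703 in mulberry animals (SD over 5 rats each; exact permutation p = 1.0), with 12199 in mulberry rat 1. Its difference was −0.00013, and 0.09 on its second probe set.

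Among 14 tested partners of VLDL assembly 11 had a higher and 3 a lower mean as deposited, with a median of 0.027, but 7 and 7 after centring each array on its median. Apob, the structural protein that Mttp lipidates, was 30175 ± 2699 in control and 33626 ± 1906 in mulberry animals (SD over 5 rats each), a difference of 0.16 ± 0.075 (exact permutation p = 0.0556), while its second probe set gave −0.11. P4hb, the small partner subunit of the transfer protein, was 14078 ± 1181 and 14251 ± 731 (SD, n = 5 each), a difference of 0.020 ± 0.076 (exact permutation p = 0.762), which turned to −0.0077 after that centring. Pla2g6, a phospholipase gene, was 248 ± 30.6 and 277 ± 56.4 (SD, n = 5 each), a difference of 0.14 ± 0.15 that was 0.036 without mulberry rat 5, and 1 of its 2 other probe sets had the opposite sign.

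Of 10 tested plasma lipases and their regulators 8 were higher and 2 lower, with a median of 0.080 (7 and 3 after median centring). Angptl8 and Angptl4 encode secreted inhibitors of lipoprotein lipase, and ANGPTL8 is induced by feeding. Angptl8 read 1235, 1183, 533, 546 and 645 in control rats and 1755, 513, 2859, 1331 and 838 in mulberry rats, so mulberry rat 3 was again the highest and mulberry rat 2 the lowest of all. The Angptl8 difference was 0.67 ± 0.40 (exact permutation p = 0.206), and 0.37 without mulberry rat 3. Angptl4 was 2939 ± 933 in control and 3602 ± 405 in mulberry animals (SD over 5 rats each), a difference of 0.35 ± 0.20 (exact permutation p = 0.222), and of 0.22 without either control rat 3 or control rat 4.

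Of 23 tested transcriptional regulators 10 were higher and 13 lower, with a median of −0.011. Ppara, the fatty acid receptor that lipin 1 coactivates, was 184 ± 36.7 in control and 133 ± 63.2 in mulberry animals (SD over 5 rats each), a difference of −0.59 ± 0.36 (exact permutation p = 0.159). Mulberry rat 2 read 25.8, and without it the difference was −0.17. Srebf1, which drives Gpam among other lipogenic genes, was 3277 ± 826 and 2840 ± 1236 (SD, n = 5 each), a difference of −0.31 ± 0.33 (exact permutation p = 0.587) that became 0.0045 without mulberry rat 4 and −0.50 without control rat 3. On its second probe set the difference was −0.12. Cebpb, a transcription factor of the fasting and acute-phase response, was 4330 ± 666 and 3519 ± 843 (SD, n = 5 each), a difference of −0.32 ± 0.17 (exact permutation p = 0.143), which was −0.18 without mulberry rat 1. Ppargc1a, the gene of PGC-1-alpha, was 162 ± 21.4 and 168 ± 31.9 (SD, n = 5 each), a difference of 0.043 ± 0.15, and 0.06 on its second probe set.

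Because lipin 1 responds to fasting and glucocorticoid, 13 tested genes with that response were set beside it. They had 4 higher and 9 lower means, with a median of −0.20 against 0.0035 over all 10328 genes, and none passed the threshold. The 4 higher were Cpt1a (0.064 ± 0.093, SE), Fgf21 (0.17 ± 0.22), Tat (0.039 ± 0.23) and Irs2 (0.025 ± 0.17). Of the 9 lower, Pck1 differed by only −0.0090 ± 0.067. By the naming rule, the 2 genes described next had the smallest unadjusted limma p of the list. Igfbp1, a secreted binding protein that rises when insulin is low, was 7572 ± 2464 in control and 5732 ± 4580 in mulberry animals (SD over 5 rats each), a difference of −0.67 ± 0.41 (exact permutation p = 0.246). Mulberry rat 3 read 1680 and mulberry rat 1 read 13607, the lowest and the highest of all, and the difference was −0.31 without rat 3 and −1.06 without rat 1. Ddit4, a stress and glucocorticoid responsive inhibitor of mTORC1, was 259 ± 63.8 and 209 ± 54.9 (SD, n = 5 each), a difference of −0.30 ± 0.21 (exact permutation p = 0.254), which was −0.14 without mulberry rat 3.

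**Figure D5:**
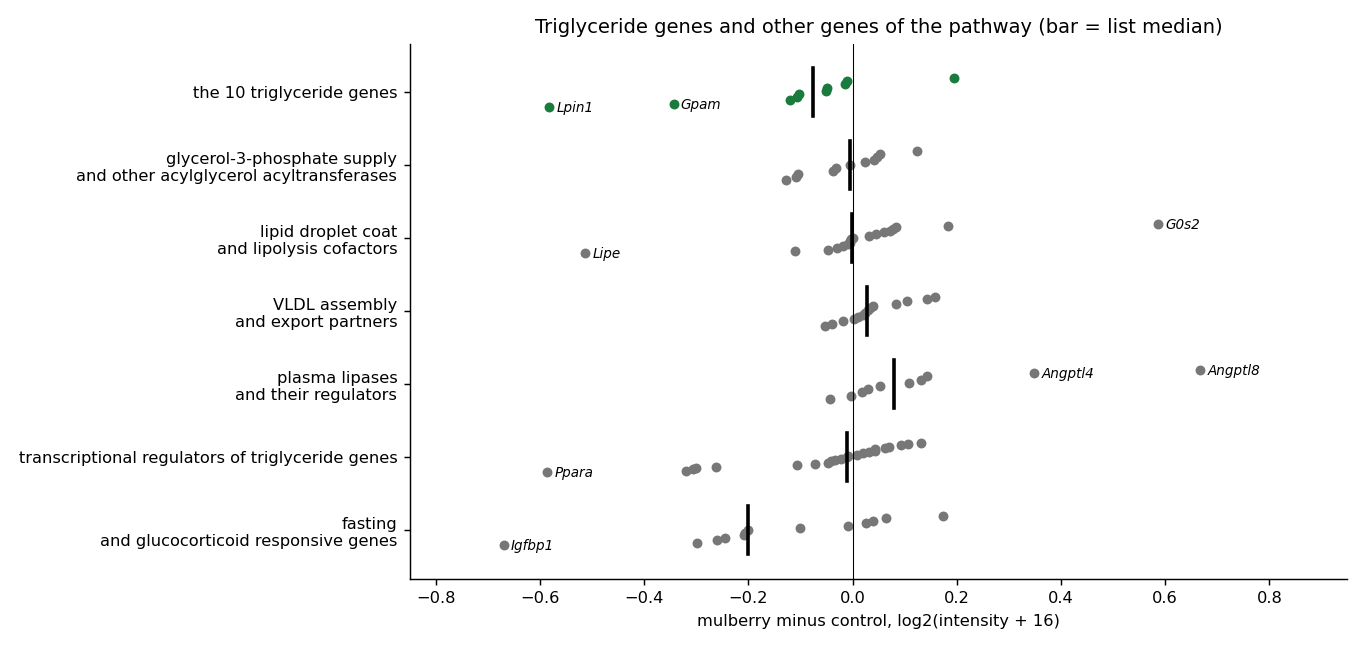
Difference of each tested gene, mulberry minus control in log2(intensity + 16), for the 10 genes (green) and the 6 lists (gray), 1 probe set a gene, with a bar at each list's median. Lpin1 and Gpam lie farthest to the left among the 10 genes, none of the points passed the threshold, and the balance of higher and lower genes for VLDL partners moved from 11 and 3 to 7 and 7 when arrays were centred on their medians.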

How the data were processed

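The values are linear signal intensities, deposited by the authors as 1 table of 31099 probe sets by 10 arrays. MAS5 and affy are named in the submitters' processing notes, with no version or role. Every array had a 2% trimmed mean of 500, and the lowest intensity was 1. Depth does not apply to arrays, and their number limits the precision. Groups came from the sample titles, and 0 other columns of sample values were left unused.

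After 57 control probe sets were removed, log2(intensity + 16) was computed, which understates differences of dim probe sets. Probe sets above the 40th percentile of mean log2 value (6.27) were fitted in R 4.3.3 with lmFit and eBayes (trend in the variance) of limma 3.58.1, two-sided, with Benjamini-Hochberg adjustment over 18625 probe sets. The script was tested on simulated data. Relations over rats used 100000 permutations, in Python 3.11.15 with numpy 2.4.6, pandas 2.3.3, scipy 1.17.1 and matplotlib 3.10.9.

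Gene symbols came from the platform annotation: 20826 probe sets had 1 symbol, 436 several and 9780 none used here. Genes and lists were chosen with earlier results of these data known. The naming rule took all 10 genes, 2 genes with the smallest unadjusted p from each of 6 pathway lists and fixed partners. Of 160 list entries, 9 marker lists included, 143 matched. Alternatives were other pseudocounts (1 and 64), filters, scalings, no variance trend, the replicate number as a block and each rat left out.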

Additional observations from a re-analysis of the deposited data

Results flagged for a closer look

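Dixon's criterion was applied to the log2 values used for the limma fit, whereas the intensities printed below are linear. Among the 28 groups of 5 rats formed by the 14 probe sets, 2 had 1 rat far from the other 4. Among 34 groups of the other pathway genes 2 did. These counts and the rats named below hold for the log2 values only. On linear intensities other groups can be marked, and those counts were not made. Chance alone marks about 1 in 20 groups.

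For the dimmer Lpin2 probe set, control rat 4 read 174, above the 117 to 132 of the other control rats. For the second Dgat2 probe set, control rat 3 read 5103, above 3856 to 4043 in the others, and the same rat was highest on the first Dgat2 probe set. For Ppara, mulberry rat 2 read 25.8, under 130.03 to 183 in the other mulberry rats. For Srebf1, control rat 3 read 1865, under 3211 to 3813 in the others.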

How the results depend on the processing

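No probe set of the array passed the threshold under any of 18 alternatives, with the smallest adjusted p at 0.112 (without control rat 3). The median difference of the 14 probe sets stayed between −0.13 and −0.047, and 10 to 14 of them had a lower mean (11 with the filter at the 60th percentile, which tests fewer of them). With the replicate number as a block the median was −0.11 and 0 passed. Deviations of equally numbered rats correlated between −0.33 and 0.096, and only number 5 matched its own best. These correlations cannot settle whether an equal number marks anything shared. No call changed with the block. Quantile normalization turned Lipc to 0.0086, and median centring turned P4hb to −0.0077 and let 1 pair pass (Dgat2 and Lipc, r = 0.87, adjusted permutation p = 0.00765); the cause was not tested. Leaving out 1 rat let 0 to 1 pair pass and gave −0.62 to −0.14 for Gpam, −0.42 to 0.063 for the second Gpam probe set, −0.21 to 0.026 for Agpat2, −0.24 to 0.097 for Lpin2, −0.22 to 0.0084 for the dimmer Lpin2 probe set, −0.22 to 0.014 for Pnpla2, −0.089 to 0.029 for Mttp, −0.040 to 0.010 for Lipc, −0.016 to 0.30 for Plin5, −0.19 to 0.11 for Plin2, −0.055 to 0.024 for Abhd5, −0.0064 to 0.066 for P4hb, −0.50 to 0.0045 for Srebf1 and −0.053 to 0.11 for Ppargc1a. The number of rats, 5 a group, limits what can be resolved.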

Other observations

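Rats that share a number in the labels held the same rank for Gpam in both groups, for 5 of 5 numbers, on its brighter probe set and for 2 of 5 on its other one. Over all 18625 tested probe sets 138 (0.741%) had all 5 ranks alike. With the replicate number as a block the standard error of Gpam was 0.16 in place of 0.34, with an unadjusted limma p of 0.0678 and an adjusted p of 0.9999. The block lowered the unadjusted limma p of the brighter Lpin1 probe set as well, from 0.119 to 0.0663, with 1 of 5 ranks alike, so this was not particular to Gpam. The labels do not say that the numbers mark anything shared.

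Mulberry rat 3 had the highest Plin5 (313), G0s2 (11288) and Angptl8 (2859) of the 10 rats, and the lowest Lpin1 (816), Dgat2 (8463), Igfbp1 (1680) and Alas1 (6604). This set of genes was put together after its values were seen.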
